A study of Mus musculus with 2 samples.

Results

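The MCM genes encode the minichromosome maintenance proteins of DNA replication, and 9 of them, Mcm2 to Mcm10, were followed through an allele-specific map of promoter contacts in mouse embryonic stem (ES) cells. The members were taken by name. Each is represented by the 50 kb windows that overlap its RefSeq span on GRCm38, with 250 kb on either side as context. This gave 11 of the 43941 windows in the table, for 8 of the 9 members. The 2 windows that Mcm6 (chromosome 1, 128331575 to 128359705) overlaps were not among the 43941. For Mcm6, only context windows and the promoter sequence were analysed. The cells were F121-6, a female hybrid ES line that carries a chromosome set from the 129 strain and another from Mus castaneus (Cas). They were untreated and were grown with LIF on mitomycin-inactivated mouse embryonic fibroblasts, so feeder cells were present in culture. The only group has 2 samples, replicates 1 and 2 of this line, and the deposited columns hold them under a shared label. Every comparison below is therefore 129 against Cas within pooled values, without a spread between replicates. The table holds contacts only, so the ES identity of the cells could not be checked against marker expression.

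Promoter Capture Hi-C joins crosslinked DNA ends inside the nucleus and then pulls out the ligation products that contain a promoter, here with baits to 22225 promoters on HindIII fragments. The proteins MCM2 to MCM7 form a ring-shaped hexamer that is loaded onto origins before S phase and becomes the motor of the replicative helicase, together with CDC45 and the GINS complex. MCM8 and MCM9 are related proteins that act as a pair in homologous recombination and are needed for fertility. MCM10 is not built like the others. It binds DNA and the assembled helicase and helps it to start unwinding. ES cells divide fast with a short G1 phase, in which they must load this helicase. E2F transcription factors are known regulators of several MCM genes at the G1 to S transition.

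The table summed to 50842396 interactions on 129 against 37470557 on Cas, a 129 share of 57.6% (exact Clopper-Pearson 95% interval 57.56 to 57.58%). Ratios are given as log2((129 + 1)/(Cas + 1)) minus the median of all windows, which was 0.45, and are called centred. All intervals cover counting error only. The test is a beta-binomial test against the overall 129 share, with a single overdispersion for the spread between windows (0.0165, which equals a window-to-window standard deviation of 6.35 percentage points). P-values were adjusted by Benjamini-Hochberg over all 43762 windows with 10 or more interactions, and a window was called at an adjusted p under 0.05. Called higher on 129 or on Cas means a 129 share above or below the overall share, not more interactions on that allele. The table also gives an interaction distance per window and allele, taken to be in bp and given here in kb. The sources used here do not state whether it is an average or a median.

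Annotated promoter sequences of the members were also searched for motifs. RefSeq promoter sequences on GRCm38.p6, from 250 bases before to 50 bases after an annotated start, were found for 8 members, all but Mcm4. Those of Mcm3 and Mcm10 are shown because their start windows have the highest centred ratios after Mcm4 (0.43 and 0.64), and those of Mcm5 and Mcm7 because their windows lie close to the overall ratio (-0.06 and 0.03). Each is on the strand of the gene, 5′ to 3′, and capitals mark matches to the E2F motifs TTTCGCGC, TTTGGCGC, TTTCCCGC or TTTGCCGC on either strand, with overlapping matches run together. Mcm3 is from chr1:20820263-20820562 (minus strand), Mcm5 from chr8:75109259-75109558 (plus), Mcm7 from chr5:138171834-138172133 (minus) and Mcm10 from chr2:5012742-5013041 (minus).
Mcm3: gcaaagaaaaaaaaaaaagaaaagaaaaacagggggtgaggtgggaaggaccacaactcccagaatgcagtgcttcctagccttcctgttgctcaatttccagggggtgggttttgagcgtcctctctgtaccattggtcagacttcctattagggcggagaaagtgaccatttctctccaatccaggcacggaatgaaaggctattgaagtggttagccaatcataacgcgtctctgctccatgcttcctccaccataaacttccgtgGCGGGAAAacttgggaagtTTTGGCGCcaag
Mcm5: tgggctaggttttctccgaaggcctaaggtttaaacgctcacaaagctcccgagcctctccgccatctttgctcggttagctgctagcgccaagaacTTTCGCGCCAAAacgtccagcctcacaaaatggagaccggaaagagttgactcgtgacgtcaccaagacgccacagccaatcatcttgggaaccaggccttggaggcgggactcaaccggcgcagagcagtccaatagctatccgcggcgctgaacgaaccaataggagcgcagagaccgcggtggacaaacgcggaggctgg
Mcm7: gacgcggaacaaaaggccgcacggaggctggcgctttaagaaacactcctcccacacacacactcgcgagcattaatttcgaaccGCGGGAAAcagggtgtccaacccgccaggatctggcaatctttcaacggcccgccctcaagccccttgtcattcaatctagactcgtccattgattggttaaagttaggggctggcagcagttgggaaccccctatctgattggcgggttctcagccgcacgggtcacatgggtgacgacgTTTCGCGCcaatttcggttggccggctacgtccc
Mcm10: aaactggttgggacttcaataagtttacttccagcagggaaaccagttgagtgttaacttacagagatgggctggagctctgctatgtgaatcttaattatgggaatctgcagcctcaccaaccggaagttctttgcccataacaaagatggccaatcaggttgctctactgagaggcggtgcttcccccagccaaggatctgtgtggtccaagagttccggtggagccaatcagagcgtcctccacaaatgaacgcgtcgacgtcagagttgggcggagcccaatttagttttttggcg
An E2F match lay in the first listed promoter of 5 of these 8 members, Mcm3, Mcm5, Mcm6, Mcm7 and Mcm8. The same 4 motifs were found in 2.92% of the first promoters of 16457 protein-coding genes. In Mcm5, a TTTCGCGC match starting 153 bases before the annotated start overlaps a TTTGGCGC match on the opposite strand. In Mcm7 the TTTCGCGC match starts at base 17 from the start, and in Mcm3 a TTTGGCGC match starts at base 39. Another promoter listed for Mcm7 (chr5:138171217-138171516) had no match. The letters were not found in this window for Mcm2, Mcm9 and Mcm10. The Mcm10 sequence ends in tttggcg, all but the last letter of TTTGGCGC, so the window cannot show whether a match lies across its edge. The CCAAT box (CCAAT on either strand) was in all 8 promoters, and in 38.9% of those of protein-coding genes. Such matches describe the sequence and not binding in these cells.

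Every one of the 11 windows had more interactions on 129 than on Cas, as the median window of the table does. Against the overall ratio, 8 windows were above 0 and 3 below, with a median centred log2 ratio of 0.43. Of these windows, 3 belong to Mcm9 and 2 to Mcm10. In the 8 start windows, 1 per member, the median was 0.13, with 5 above 0 and 3 below. The beta-binomial test called 1 of the 11 windows higher on 129, the window of Mcm4, and none of them higher on Cas. Over all windows tested, 0.727% were called higher on 129. Of the 8 windows that hold a member's start, the same 1 was called, against 1.06% of the 10943 windows with the start of a protein-coding gene. Genes that span more than 1 window and lack a single annotated strand were given no start window. An exact binomial test, which allows for counting error alone, called 7 of the 11 windows higher on 129. It called 1 higher on Cas, that of Mcm2, whose 129 share of 55.6% was below the overall 57.6%. It called 27.1% of all windows higher on 129 and 24.3% higher on Cas.

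**Figure D1:**
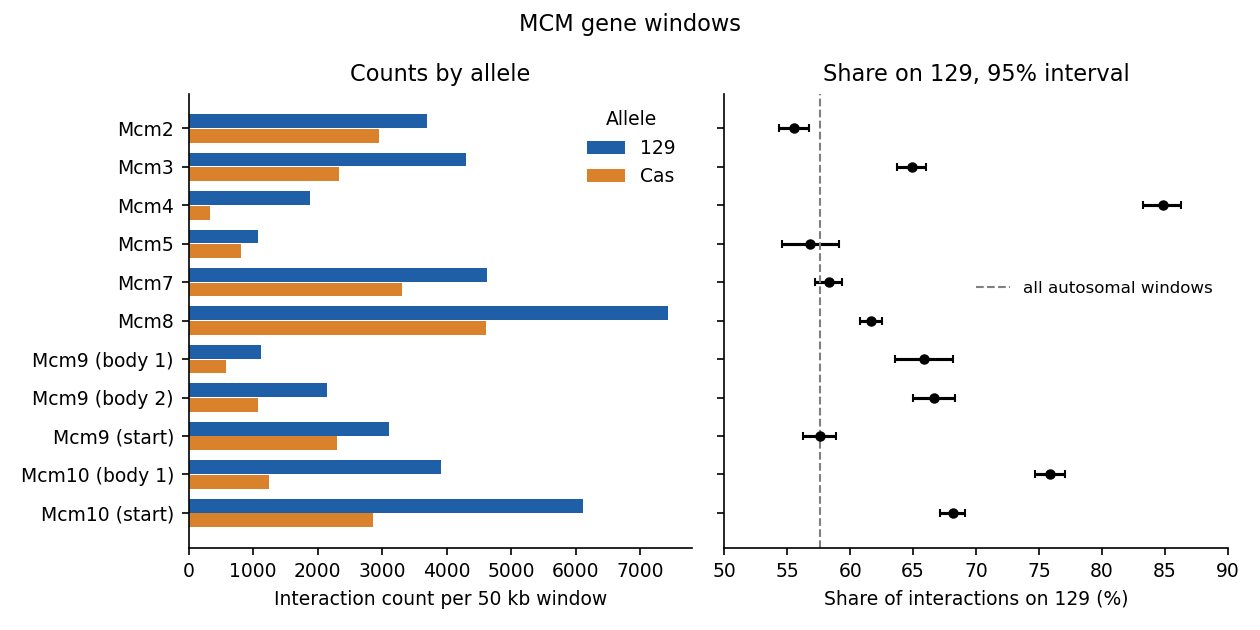
Interaction counts on 129 and Cas (left, bars from 0) and the share of interactions on 129 with its exact 95% interval (right) in the 11 windows of 50 kb that overlap an MCM gene, in pooled data of 2 samples. The dashed line is the share over all autosomal windows, 57.6%, and the Mcm4 window lies farthest above it at 84.8%.

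Counts were also summed over all windows that overlap each gene. Apart from Mcm9 and Mcm10, each measured member has 1 such window, so its locus holds the same counts as its window. The locus test, run over 18479 protein-coding loci with its own overdispersion of 0.0109, called 1 of 8 members higher on 129 and none higher on Cas. Over all loci, 0.996% were called higher on 129 and 0.368% higher on Cas. The median centred ratio of the 8 loci was 0.24 (6 above 0, 2 below), beside -0.04 over all protein-coding loci. By the binomial test, 5 members were higher on 129 and 1 on Cas, against 29.2% and 38.3% of all loci.

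Among the genes of the hexamer, Mcm4 (chromosome 16, 15623897 to 15637400) stood apart. Its window, 15600001 to 15650000, had 1885 interactions on 129 against 337 on Cas, a ratio of 5.59. The share on 129 was 84.8% (83.3 to 86.3%), and the centred log2 ratio was 2.03. The beta-binomial adjusted p was 0.000315 for the window and 1.09e-06 for the locus, whose overdispersion is lower. With 1 more window on each side added to every locus, that of Mcm4 was not called (adjusted p of 0.0743). A centred ratio this high or higher occurred in 182 of 43762 windows, or 0.416%, and in 57 of the 10943 start windows.

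The interactions of the Mcm4 window also differed in length. The distance was 17 kb for 129 against 1494.5 kb for Cas, 87.9 times as long. The log2 ratio of 129 to Cas distance was -6.46, and over all start windows this ratio had a standard deviation of 0.64 around a median of 0.00. With the Mcm4 window itself included, 2 of 10877 start windows and 17 of 43555 windows of any kind had a ratio of this size in either direction. There is 1 distance per allele and window, so no test could be made.

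On 129 the Mcm4 window had more interactions than the adjoining windows (726 and 717), and on Cas it had fewer (566 and 454). It was not the highest of its surroundings on 129. The window with the start of Cebpd (15850001 to 15900000) had 2214 interactions on 129 and 1516 on Cas. The 1885 interactions on 129 were 3.67 times the median of the 10 surrounding windows (513), while the 337 on Cas were 0.82 times theirs (411). The distance on 129 was 0.0257 times the surrounding median of 661.25 kb. On Cas it was 1.58 times the median of 948 kb. In the other 7 members with data, the start window exceeded the median of its surroundings on both alleles, by 1.17 to 6.86 times on 129 and by 1.04 to 5.29 times on Cas.

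The 129 count of this window lay between the quartiles of start windows (1344 and 3408), and its Cas values lay in the range of windows without a protein-coding gene. The 18454 gene-free windows had a median of 228 interactions on Cas (quartiles 132 and 388) and a median Cas distance of 901 kb (quartiles 343.5 and 2824). Both Cas values at Mcm4 fall between these quartiles. Among start windows, whose median Cas count was 1666 and distance 112 kb, its Cas count was at the percentile 7.81 and its Cas distance at 98.3. On 129, its count was at the percentile 39.6 and its distance of 17 kb among the shortest 1.49%. What sets this difference between the alleles was not tested.

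None of the 10 surrounding windows was called. The windows on either side had centred ratios of -0.09 and 0.21, and the median of the surrounding 10 was -0.06. Their largest ratio was 0.99, in a gene-free window about 250 kb away (15350001 to 15400000) with 135 interactions on 129 and 49 on Cas. Mcm4 is known to be a close neighbour of Prkdc, which encodes the catalytic subunit of the DNA-dependent protein kinase of double-strand break repair. Their annotated spans are 43 bp apart, and the lower end of the Prkdc span (15637444 to 15842239) lies in the Mcm4 window. Contacts of both genes are thus counted together there. The windows that hold only the rest of Prkdc had ratios of 0.21, -0.28 and -0.34, and the next, shared with Mzt2, had 0.22.

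**Figure D2:**
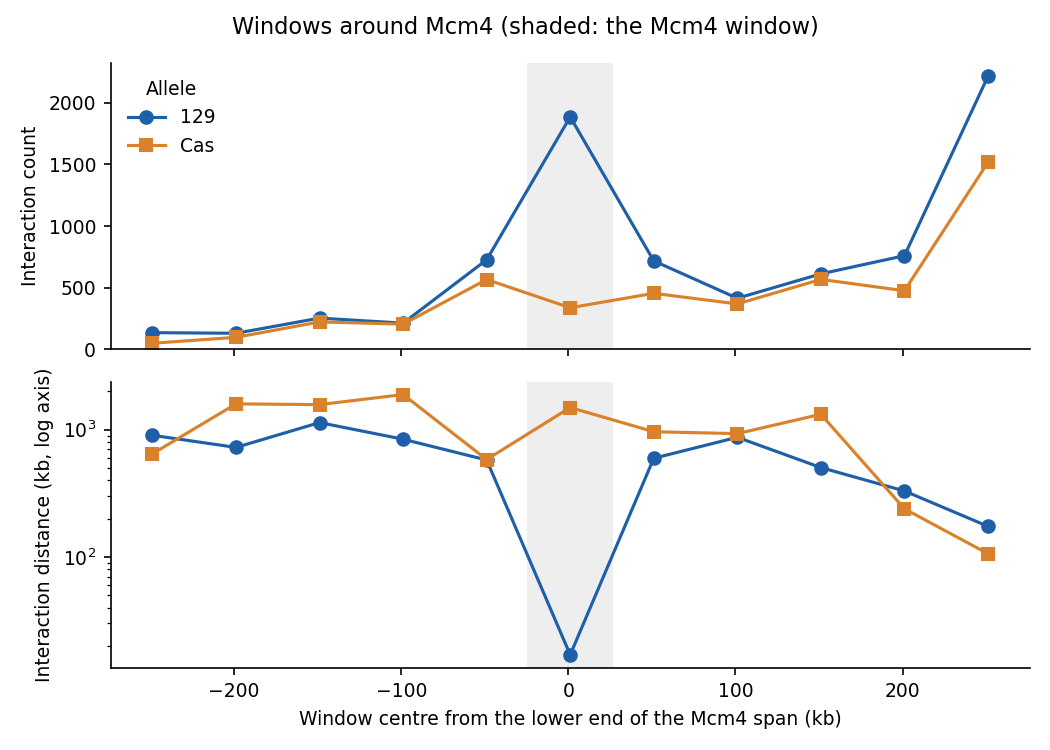
Interaction counts (top, linear axis from 0) and interaction distances in kb (bottom, log axis) on 129 and Cas in the 11 windows within 250 kb of Mcm4, by the distance of each window's centre from the lower end of the Mcm4 span. In the shaded Mcm4 window 129 has 1885 interactions at 17 kb and Cas has 337 at 1494.5 kb, while the adjoining windows have centred ratios of -0.09 and 0.21.

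The start windows most like that of Mcm4 were looked for next. Likeness was the Euclidean distance over the log2 summed count, the centred count ratio and the log2 distance ratio, each divided by its standard deviation over 10877 start windows of this pooled dataset. The 5 nearest were the start windows of Kcnj3, Hpcal1, Sult2a8, Nxph2 and Trhde, at likeness distances from 1.64 to 2.93. The nearest, that of the potassium channel gene Kcnj3, had 3943 interactions on 129 against 578 on Cas at 14 and 2125.5 kb. The window of Hpcal1, a gene of a neuronal calcium sensor, had 922 and 306 at 62 and 3618 kb and was not called (beta-binomial adjusted p = 0.25).

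The other measured genes of the hexamer differed less between the alleles. Mcm3 (chromosome 1, 20802966 to 20820312) had 4302 interactions on 129 against 2326 on Cas in its window (20800001 to 20850000), a 129 share of 64.9% (63.7 to 66.1%) and a centred ratio of 0.43. This was within the spread between windows, with a beta-binomial p of 0.252 before adjustment and 1 after it. Its distances were alike, 68 kb for 129 against 60 kb for Cas. The window next to it did pass the test. It holds Paqr8, which encodes a membrane progestin receptor, and had 2868 interactions on 129 against 585 on Cas (20850001 to 20900000), a centred ratio of 1.84 with an adjusted p of 0.00158. Of the 85 context windows around all 9 members it was the only one called. The following window was at 0.82 and the one after that at -0.19. Neither of these was called.

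Mcm2 (chromosome 6, 88883474 to 88898780) was the member with the lowest share on 129. Its window (88850001 to 88900000) also holds the start of Podxl2, and it had 3692 interactions on 129 against 2954 on Cas. The share was 55.6% (54.3 to 56.8%) and the centred ratio -0.13, beside a median of -0.14 over the surrounding 10 windows. The largest ratio among these was -0.41, in a window with no protein-coding gene (89050001 to 89100000, with 861 and 838 interactions). The beta-binomial p was 0.746 before adjustment. Distances were 149 kb for 129 against 173 kb for Cas, the longest on 129 among the start windows of the members.

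Mcm5 (chromosome 8, 75109468 to 75128439) had the fewest interactions of any member start window, 1072 on 129 and 814 on Cas (75100001 to 75150000). The window also holds the last part of Hmox1, the heme oxygenase gene. The share on 129 was 56.8% (54.6 to 59.1%) and the centred ratio -0.06, so the overall share of 57.6% lay inside the counting interval. The distance was 34 kb for 129 against 56 kb for Cas. The surrounding windows ran from -0.29 to 0.23, with a median of -0.17, and the lowest was that of Isx (74850001 to 74900000, with 1202 and 1074 interactions).

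Mcm7 (chromosome 5, 138164583 to 138172111), whose introns are known to host a microRNA cluster, lies in the most gene-dense of the member windows. That window (138150001 to 138200000) holds the starts of Zfp113, Cops6, Ap4m1, Taf6, Cnpy4 and Mblac1 as well. It had 4626 interactions on 129 against 3311 on Cas, a share of 58.3% (57.2 to 59.4%) and a centred ratio of 0.03. Distances were short and alike, 21 kb for 129 against 22 kb for Cas. Its neighbour with Nxpe5 (138200001 to 138250000) had 653 and 788, a centred ratio of -0.72 that was not called.

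Around Mcm6, 5 context windows were analysed, where each other member had 10. All 5 had centred ratios below 0, from -0.70 to -0.01 with a median of -0.53, and none was called. The lowest was the window of Ubxn4 and the lactase gene Lct (128250001 to 128300000), with 253 interactions on 129 and 300 on Cas. The window of Cxcr4, a chemokine receptor gene (128550001 to 128600000), had 2304 and 2533.

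The beta-binomial test called neither gene of the recombination pair. The binomial test against the overall share called both loci higher on 129, as it did 29.2% of all protein-coding loci. Mcm8 (chromosome 2, 132816137 to 132844197) shares its window (132800001 to 132850000) with the starts of Trmt6, a tRNA methyltransferase subunit gene, and Crls1, the cardiolipin synthase gene. With 7432 interactions on 129 and 4616 on Cas it was the highest of all member windows, at the percentile 99.4 of all windows by summed count. The share on 129 was 61.7% (60.8 to 62.6%) and the centred ratio 0.23, with a beta-binomial p of 0.528 before adjustment. The distance was 25 kb for 129 against 17 kb for Cas. The adjoining windows were at 0.30 (132850001 to 132900000, with the start of Lrrn4) and -0.18 (132750001 to 132800000, with the start of Chgb), and neither was called.

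Mcm9 (chromosome 10, 53536315 to 53630006) is the longest member at 93.7 kb and spans 3 windows whose ratios differed along the gene. The window with its start (53600001 to 53650000) had 3112 interactions on 129 against 2294 on Cas, a centred ratio of -0.01. The middle window (53550001 to 53600000), where the start of Asf1a also lies, a histone chaperone gene, had 2138 and 1069 and a ratio of 0.55. The last window (53500001 to 53550000) had 1115 and 577 and a ratio of 0.50. The median window of chromosome 10 lay at 0.24, and all 10 surrounding windows were above 0, from 0.00 to 0.67. The highest was a window with no protein-coding gene (53850001 to 53900000, with 503 and 230 interactions). Relative to the chromosome the 3 windows were at -0.25, 0.31 and 0.26, and the locus as a whole, with 61.8% on 129 (60.8 to 62.7%), was at 0.00. The beta-binomial test called no window of Mcm9, against the overall share or that of chromosome 10. The binomial test against the overall share called the last and middle windows higher on 129, as it did 27.1% of all windows. It did not call the start window.

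Mcm10 (chromosome 2, 4990724 to 5012791) had the next largest imbalance after Mcm4. Its start window (5000001 to 5050000) had 6115 interactions on 129 against 2860 on Cas, a share of 68.1% (67.2 to 69.1%) and a centred ratio of 0.64. The window of its last part (4950001 to 5000000), which also holds the start of the cartilage matrix gene Ucma, had 3918 and 1243, a share of 75.9% (74.7 to 77.1%) and a centred ratio of 1.20. Neither window was called, with beta-binomial adjusted p of 1 and 0.149. The locus, with a 129 share of 71.0% (70.2 to 71.7%) and a centred ratio of 0.84, had an adjusted p of 0.276. With the overdispersion estimated within deciles of the summed count it was called, with an adjusted p of 0.0122. In this setting 1.03% of all protein-coding loci were called. The adjoining window with the starts of Phyh and Gm13194 (4900001 to 4950000) was at 0.73, with 831 and 366 interactions, while the window on the other side was at 0.01.

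At Mcm10, unlike Mcm4, the allele with more interactions had the longer ones. The distance in its start window was 101 kb for 129 against 41.5 kb for Cas, a log2 ratio of 1.28. In the window of its last part the distances were 23 and 18 kb. The start windows of Mcm4 and Mcm10 were 2 of the 8 with distances at least 2-fold apart, in opposite directions, and this holds for 8.94% of all start windows in which both alleles had at least 10 interactions. Over the 8 start windows the distance was longer on 129 in 4 and on Cas in 4. Their median distances were 36 kb for 129 against 48.75 kb for Cas, against 107 and 112 kb over all start windows.

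**Figure D3:**
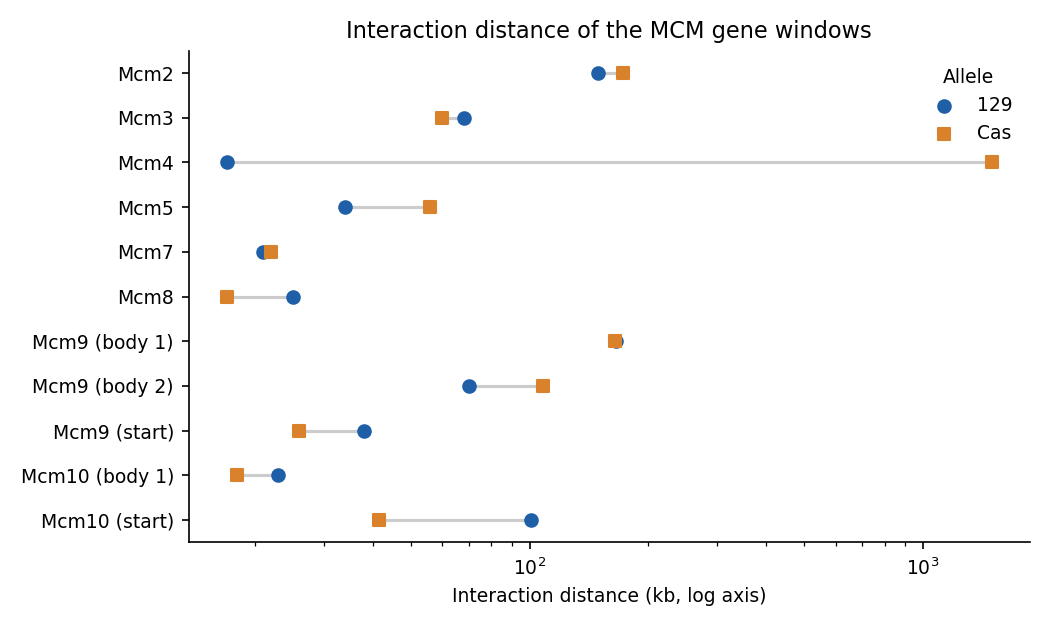
Interaction distance in kb (log axis) on 129 (circles) and Cas (squares) in the 11 MCM gene windows. Each line joins the values of a window, and that of Mcm4, from 17 to 1494.5 kb, is far longer than the rest.

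**Figure D4:**
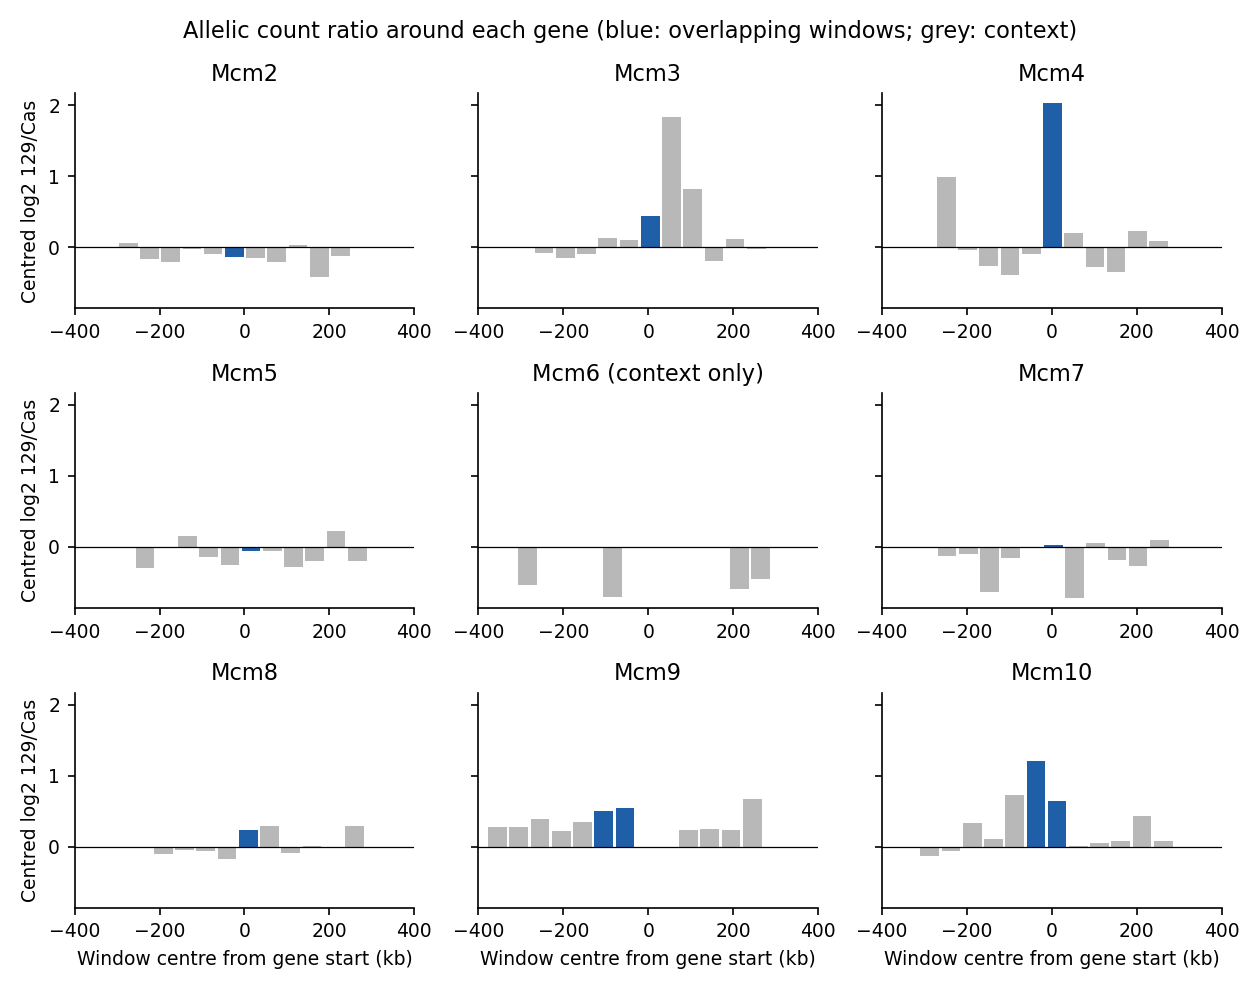
Centred log2 ratio of 129 to Cas counts in 50 kb windows by distance of the window's centre from the gene start in kb (for Mcm4, from the lower end of its span), with windows that overlap the gene in blue and context windows in grey. The Mcm4 window is a single peak at 2.03, Mcm3 lies beside the Paqr8 window at 1.84, Mcm10 lies in a run of 3 windows above 0.6, and the Mcm9 start window is at -0.01 among neighbours at or above 0.

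By summed count the start windows ranked from Mcm8 (12048 interactions) through Mcm10 (8975), Mcm7 (7937), Mcm2 (6646), Mcm3 (6628), Mcm9 (5406) and Mcm4 (2222) to Mcm5 (1886). Exact Poisson 95% intervals of neighbours in this order overlapped only for Mcm2 (6487 to 6808) and Mcm3 (6469 to 6790). The windows are equal in length, but a count follows the number of baited fragments in a window, and several windows hold the starts of other genes. On Cas alone the order differed: Mcm10 (2860) came after Mcm7 (3311) and Mcm2 (2954), and Mcm4 had the lowest count, 337, below the 814 of Mcm5.

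**Figure D5:**
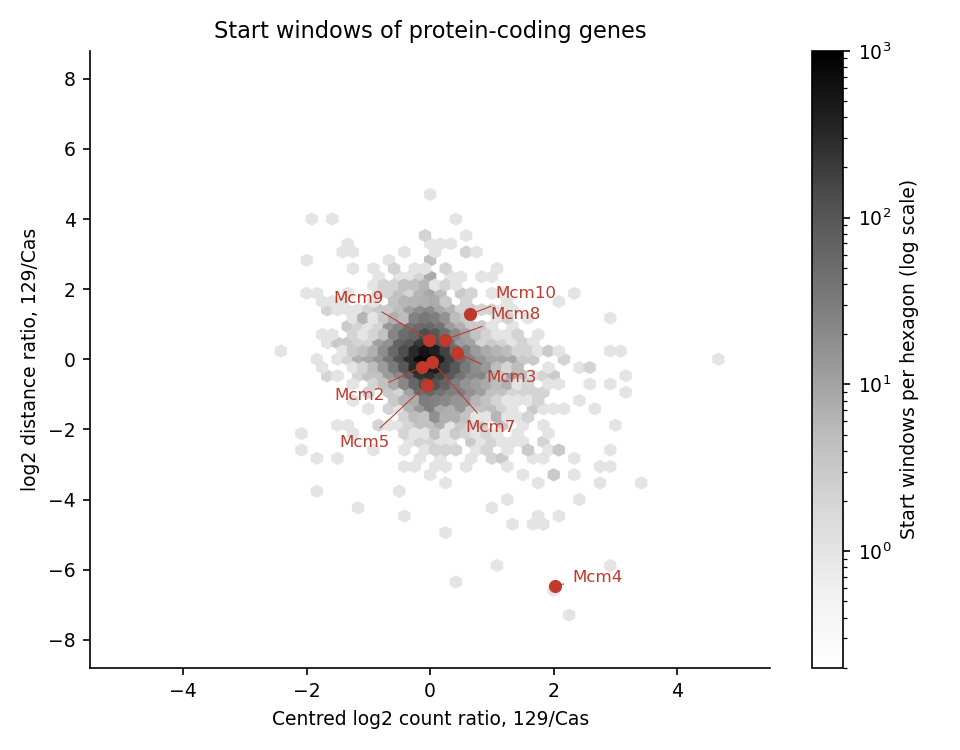
Log2 ratio of 129 to Cas distance against the centred log2 ratio of 129 to Cas counts, in 10877 windows with the start of a protein-coding gene (grey hexagons, number per hexagon on a log scale) and the 8 member start windows (red). Mcm4 lies at 2.03 and -6.46, away from the other 7, which lie between -0.13 and 0.64 and between -0.72 and 1.28.

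The partners that load and activate the helicase gave a background for the members. Of 27 listed genes, 24 were measured, and the beta-binomial test called none of these loci on either allele. Over all protein-coding loci it called only 0.996% higher on 129 and 0.368% higher on Cas. By the binomial test with the same adjustment, 7 of the 24 were higher on 129 and 6 on Cas. Over all loci these shares were 29.2% and 38.3%. The median centred ratio of the 24 was -0.01 (11 above 0, 13 below), and their range was -0.39 to 0.35. The highest were Hrob, which encodes a factor that recruits the MCM8 and MCM9 pair, at 0.35, Mcm3ap at 0.28 and Ticrr, a gene needed for origin firing, at 0.27. The lowest were Gins1, of the GINS complex, at -0.39, Mcmbp, which encodes an MCM-binding protein, at -0.38, and Dbf4, the activator of the CDC7 kinase, at -0.26. Beside this list, 1 of the 8 members had a ratio of at least 2-fold from the median window, as did 2.06% of all protein-coding loci.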

How the data were processed

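Promoter Capture Hi-C was made from F121-6 cells fixed in 2% formaldehyde, with paired reads of 100 bp, per the labels' protocols. Bowtie2 and mm10 are named in the submitters' processing notes. The sources used here do not give allele assignment, filters or how replicates were merged. The deposited values are whole-number interaction counts per allele in 50 kb windows, not normalised, and a distance per allele. Counts follow the capture baits, and Cas is known to differ more than 129 from the reference. Any effect of this on the counts was not tested.

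Genes were placed by RefSeq spans on GRCm38. Ratios used a pseudocount of 1. A two-sided beta-binomial test was run on windows and protein-coding loci summing to at least 10 interactions, with a single overdispersion, with Benjamini-Hochberg adjustment at 0.05. The alternatives were a binomial test, overdispersion by count decile, chromosome null shares, other minimums, thresholds, pseudocounts, centres and locus definitions. The text names all members and their windows, per member the context window with the largest ratio at 100 or more interactions, genes starting in its start window, up to 3 loci per list and direction and every called one, and the 5 start windows most like that of Mcm4. Other context windows, such as those of Cxcr4 and Prkdc, were named after their values were seen. The members and lists were chosen with earlier results of these data known. Scripts ran in Python 3.11.15 with scipy 1.17.1, pandas 2.3.3, numpy 2.4.6 and, for plots, matplotlib 3.10.9.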

Additional observations from a re-analysis of the deposited data

How the results depend on the processing

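The call of the Mcm4 window held under all 6 alternatives run on windows, with adjusted p up to 0.00267. The Mcm4 locus was lost when 1 more window was added on each side, with an adjusted p of 0.0743, the highest over its 8 alternatives. In that setting 0 members were called, and 0.842% of all protein-coding loci. With overdispersion by count decile 2 member loci were called, Mcm4 and Mcm10, and 1.03% of all protein-coding loci. The binomial test called 8 windows, 5 start windows and 6 loci of the members, and 29 of 51 loci of the related lists against 1. The binomial test allows for no spread between windows, and it called 51.4% of all windows and 67.5% of all protein-coding loci. Signs of small ratios turned with the centre: against the flanking windows Mcm2 was at 0.0091 and Mcm9 at -0.030, and with its start window alone Mcm9 was at -0.013. Mcm5, at -0.056 in the main setting, was at 0.058 against its own chromosome and at 0.114 against its flanking windows. The centred ratios of Mcm3, Mcm4, Mcm7, Mcm8 and Mcm10 stayed above 0 under all 5 alternatives run on them. A window that was not called is not shown to be equal on both alleles. No replicate could be left out, since each column pools both samples. No paired analysis was possible because both samples belong to the same group and share each column.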

Other observations

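Genes of S phase that are known targets of E2F factors were set beside the MCM genes. All 27 listed loci were measured, and the beta-binomial test called 1, Ccna2, which encodes cyclin A2, higher on Cas and none higher on 129. Over all protein-coding loci, 0.368% were called higher on Cas and 0.996% higher on 129. Ccna2 lies on chromosome 3 in a window (36550001 to 36600000) shared with Exosc9 and Bbs7, with 2058 interactions on 129 and 3617 on Cas. The share on 129 was 36.3% (exact Clopper-Pearson 95% interval 35.0 to 37.5%) and the centred log2 ratio -1.27. The beta-binomial adjusted p of the locus was 0.00659. It was 0.00394 to 0.00944 under the alternatives run on this locus other than the binomial test. The other locus definitions were run on the members only. Tested as a window by the same beta-binomial test, Ccna2 had an adjusted p of 0.0826 and was not called. Distances were short on both alleles, 17 kb on 129 and 14 kb on Cas. The median centred ratio of the list was -0.02, with 11 loci above 0 and 16 below. The highest were Prim1, a primase subunit gene, at 0.36, Pold1, the catalytic subunit gene of DNA polymerase delta, at 0.31, and Rfc2, of the clamp loader, at 0.23. After Ccna2 the lowest were E2f2 at -0.42 and E2f3 at -0.39, which encode activating E2F factors.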
